A study of Mus musculus with 4 samples.

Results

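The tandem duplications described here are those whose duplicated segment holds a simple repeat, that is a perfect homopolymer of at least 8 bp or a perfect stretch of at least 3 copies of a unit of 2 to 6 bp that is at least 12 bp long. The rule was applied to the reference allele of each record, and it took 394 of 1404 records (28.1%, 95% Clopper-Pearson interval 25.7 to 30.5). Of these, 222 were among the 792 records of the wild type (WT) and 172 among the 612 records of the FEN1 A159V heterozygote. A further 35 records lay in 2 crowded windows that were set aside, 24 on chromosome 6 and 11 on chromosome 15, and 0 of these 35 met the repeat rule. The other 975 records, outside simple repeats, served for comparison.

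The study sequenced exomes of mouse lung DNA in 4 libraries, 1 each from WT normal lung, WT lung tumor, and normal lung and lung tumor of the genotype with the A159V change on 1 allele of Fen1. Its stated aim was to measure how often duplications arise when Okazaki fragments mature poorly. The labels' treatment field names a Fen1 knock-in for all 4 samples, WT included, and the genotype was taken from the sample titles. The labels used here name no age, no strain, no origin of the tumors and no animal for either tissue. The tables list duplications only, so the A159V allele itself could not be checked in them, and Fen1 holds no record at a simple repeat.

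FEN1 is the nuclease that removes the displaced 5′ flaps of Okazaki fragments before ligase seals the lagging strand. Microsatellites and homopolymers, the simple repeats of the genome, are places where the strands of a replicating helix can pair out of register, and a flap made of repeat units can fold back or anneal to a neighbouring copy. Loss or weakening of FEN1, or of its yeast counterpart, is known to leave unprocessed flaps and to raise the rate of short tandem duplications and of repeat-length changes.

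The records had 2 forms, shown by the sequences that follow, all on the + strand of GRCm38 and read from the deposited tables. Each line gives the base before the duplicated segment and then the segment, with the longest perfect stretch in capitals. In an exact copy the duplicated segment follows itself directly. These 5 exact copies were chosen because they were found in both genotypes (Tle1) or had the largest change in stretch length among exact copies for a unit of 1 to 4 bp.
Tle1 chr4:72181689-72181719, poly-T: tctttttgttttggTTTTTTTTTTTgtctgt
Trpm7 chr2:126838719-126838742, poly-A: gAAAAAAAAAAAAAAAAAAtacca
chrY:27399655-27399701, unit AC: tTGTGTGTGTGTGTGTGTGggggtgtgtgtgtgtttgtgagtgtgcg
chr10:43642233-43642272, unit AGG: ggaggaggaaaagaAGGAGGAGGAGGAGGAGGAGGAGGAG
Igk chr6:70461758-70461793, unit ACAG: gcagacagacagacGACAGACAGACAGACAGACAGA

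In the other form, further inserted bases lie between the 2 copies of the segment. These 6 records were chosen because they were found in both genotypes (Megf9), had the longest stretch of a unit length (Msh4, Ctnna3, the poly-T and the AGAT record) or had the most reads of a 3 bp unit (Slc9c1). For Megf9, Msh4 and Slc9c1 the second line gives the intervening bases, with stretches that meet the repeat definition in capitals.
Megf9 chr4:70513721-70513767, unit AAAGG: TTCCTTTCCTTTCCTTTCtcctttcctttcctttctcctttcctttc
Megf9, intervening bases: ctttcTCCTTTCCTTTCCTTTC
Msh4 chr3:153884318-153884366, unit ACAGC: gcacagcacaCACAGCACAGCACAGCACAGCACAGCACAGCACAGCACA
Msh4, intervening bases: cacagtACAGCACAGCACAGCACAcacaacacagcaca
Slc9c1 chr16:45589348-45589392, unit AGG: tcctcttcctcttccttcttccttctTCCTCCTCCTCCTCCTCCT
Slc9c1, intervening bases: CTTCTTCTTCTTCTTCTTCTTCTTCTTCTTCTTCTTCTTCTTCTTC
Ctnna3 chr10:63534909-63534956, unit AG: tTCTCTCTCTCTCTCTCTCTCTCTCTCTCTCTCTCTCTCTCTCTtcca
chr13:46093690-46093739, unit AGAT: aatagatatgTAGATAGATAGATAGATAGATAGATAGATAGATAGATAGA
chr13:54452497-54452545, poly-T: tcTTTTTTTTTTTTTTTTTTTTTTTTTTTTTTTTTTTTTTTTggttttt
Units are named by their alphabetically first form over all rotations and both strands, so that TTCCT in Megf9 counts as AAAGG. Gene names give the RefSeq gene span of GRCm38.p6 that a record overlaps; exons and introns were not told apart.

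Homopolymers made up 211 of the 394 records (53.6%). Of these, 170 were runs of A or T, with 88 written as A and 82 as T on the + strand, and 41 were runs of C or G, with 22 as C and 19 as G. The commonest of the other units was AC, the CA/TG microsatellite, with 53 records, and the AG dinucleotide had 11. Longer units were spread over many kinds, led by AGAT with 14 records, AGG with 13, and AAAC, AAAG and AAAGG with 10 each. In all, 35 distinct units occurred. Units built only of A and G (C and T on the other strand) made up 77 of the 183 records with a unit of 2 to 6 bp (42.1%, 34.8 to 49.6) and 66 of the 116 with a unit of 3 to 6 bp (56.9%, 47.4 to 66.1).

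The spread over unit lengths was close in the 2 genotypes. In WT the counts for units of 1 to 6 bp were 115, 39, 16, 28, 17 and 7 records, and in A159V they were 96, 28, 7, 23, 13 and 5. The odds of a homopolymer among members were 1.17 times as high in A159V as in WT (0.773 to 1.79), an interval that spans 1. The share of all records at simple repeats was 28.0% in WT (24.9 to 31.3) and 28.1% in A159V (24.6 to 31.8), an odds ratio of 1.00 (0.788 to 1.28). The unit with most records among those found in 1 library only was ACAG: all 5 of its records were A159V tumor calls, 4 of them exact copies. It was picked out after the counts of 35 units were seen, so it is given as a count only.

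A call is a record with at least 1 supporting read in a library. At simple repeats the WT tumor held 128 calls (95% exact Poisson interval 107 to 152) and WT normal lung 97 (78.7 to 118). The A159V tumor held 89 (71.5 to 110) and its normal lung 84 (67 to 104). The WT tumor was the highest of the 4, with an interval that overlaps those of WT normal lung and of the A159V tumor but not that of A159V normal lung. In WT, 125 members had tumor reads only, 94 normal reads only and 3 both kinds. Over all WT records, 57.2% were tumor-only and 36.6% normal-only. In A159V, 88 members were tumor-only, 83 normal-only and 1 was in both, where 48.5% and 45.4% of all A159V records fell in the first and the second class. Each group is 1 library, so no difference between groups could be set against replicates. Intervals and limits therefore cover counting error only. They also leave out that several reads may stem from the same molecule, since the libraries carry no stated molecular tags.

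**Figure D1:**
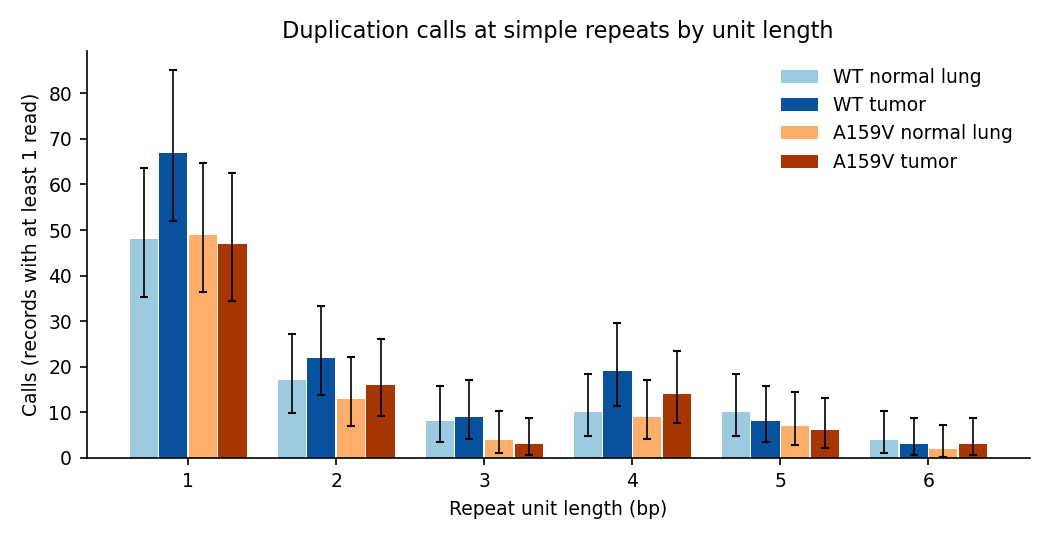
Duplication calls at simple repeats by the length of the repeat unit (x axis, bp) in the 4 libraries; bars are numbers of records with at least 1 supporting read and lines are 95% exact Poisson intervals. At 1 bp the WT tumor had 67 calls and the other libraries 47 to 49, and at each unit length the intervals of all 4 libraries overlapped.

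The ratio of tumor-only to normal-only calls at simple repeats was 1.33 in WT (1.01 to 1.76, exact conditional interval), or 1.32 (0.995 to 1.74, spanning 1) with records within 10 bp merged, and 1.06 in A159V (0.777 to 1.45). Divided by each other, A159V over WT, these gave 0.798 (0.523 to 1.22), an interval that spans 1. Outside simple repeats the same quotient was 0.643 (0.488 to 0.846), which excludes 1, and the intervals overlap. Between genotypes, the A159V tumor had 0.695 times the calls of the WT tumor (0.524 to 0.918), while the ratio for normal lung was 0.866 (0.639 to 1.17). Outside simple repeats the A159V to WT ratio was 0.64 in tumor (0.54 to 0.757), and its interval holds the value found at simple repeats. The part of sequencing depth in these ratios was not tested. Within a genotype, tumor and normal lung were counted at the same sites. Reads summed over member sites were 580 in the WT tumor and 489 in its normal lung, and 409 and 432 in A159V. Over the records outside simple repeats they were 150167 and 87857 in WT, and 97266 and 63900 in A159V. Between the 2 genotypes the sites differed.

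The intervals of these ratios overlapped across repeat classes. For homopolymers the WT tumor-only to normal-only ratio was 1.40 (67 against 48, 0.949 to 2.07) and that of A159V was 0.959 (47 against 49, 0.629 to 1.46). For units of 2 to 6 bp the ratios were 1.26 in WT (0.842 to 1.90) and 1.21 in A159V (0.747 to 1.96). Exact copies gave nearly even numbers in all 4 libraries. They numbered 22 in the WT tumor and 20 in its normal lung, and 20 in the A159V tumor and 18 in its normal lung, an A159V to WT tumor ratio of 0.909 (0.471 to 1.75). Calls with intervening bases numbered 106, 77, 69 and 66 in the same order, with an A159V to WT tumor ratio of 0.651 (0.474 to 0.890). The intervals of these 2 ratios overlap.

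Almost all of these records rested on 1 read. Of the 394, 386 (98%) had 1 supporting read over both libraries, 8 had 2 or 3, and the genotype field gave the duplication in 0 of them. Sites were thinly covered. The median depth at a member site was 1 read in each library, and the library had no read there at all at 41.0% (normal) and 27.0% (tumor) of WT sites and at 38.4% and 31.4% of A159V sites. At 217 members (55.1%) neither library of the genotype had a reference read, against 287 of 975 other records (29.4%), an odds ratio of 2.94 (2.29 to 3.77). At least 20 reads in both libraries were reached by 5 members (1.27%) and 266 other records (27.3%). Crowded parts of the tables held no member: 0 of 394 lay in 100 kb windows with 8 or more records, where 142 of 975 other records lay.

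**Figure D2:**
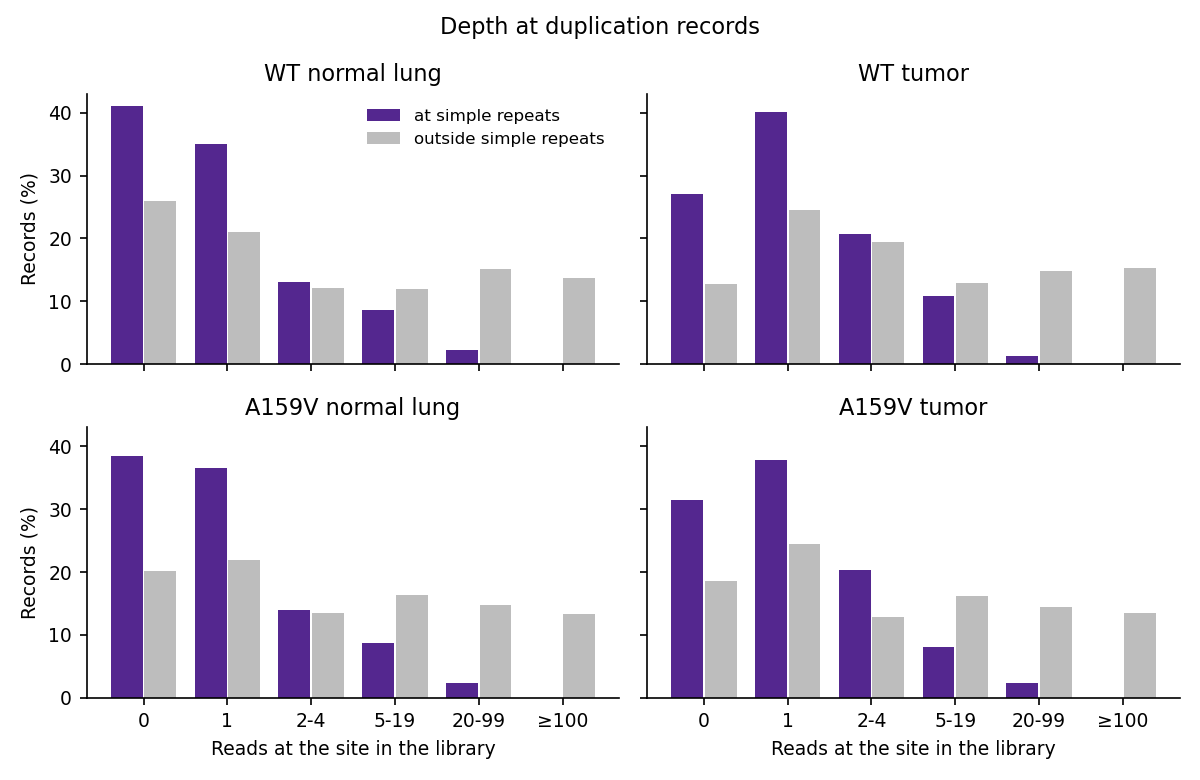
Share of records (y axis, %) by the number of reads at the site (x axis, 6 classes) in each library, for records at simple repeats (purple) and outside them (grey). In WT normal lung 41.0% of sites at simple repeats had 0 reads against 26.0% of the others, and 0 members reached 100 reads in any library.

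The few well-covered members each had 1 duplicated read, so the share of reads given for them is set by the depth. Vipr1, which encodes a receptor for vasoactive intestinal peptide, had 1 duplicated read of 71 in A159V normal lung (1.41%) and 0 of 60 in the tumor, which allows up to 5% (3 reads of the depth). Cwc22, a splicing factor gene, had 1 of 62 in WT tumor (1.61%) and 0 of 50 in normal lung. Per2, a repressor of the circadian clock, had 1 of 44 in WT normal lung (2.27%) and 0 of 51 in the tumor. Slco1a1, an organic anion transporter gene, had 1 of 30 in WT normal lung (3.33%) and 0 of 45 in the tumor. Zranb3, whose product remodels stalled replication forks, had 1 of 32 in A159V normal lung (3.12%) and 0 of 30 in the tumor. These 5 are all the members with at least 20 reads in each library of the genotype, and in each 1 library had 1 duplicated read and the other had 0, a difference that 1 read makes.

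In single libraries with at least 20 reads, the share of reads with the duplication ran from 1.41% to 5% over 10 calls. Each of these 10 calls was 1 read, so its share is 1 over the depth, and the minimum of 20 reads caps it at 5%. The shares and their medians thus follow depth and do not measure how common a duplication was. WT normal lung had 4 such calls with a median of 3.75%, A159V normal lung 3 with a median of 3.12%, A159V tumor 2 at 4.17% and 4.35%, and WT tumor 1 at 1.61%. At any depth the median share was 100% in each library, where most calls were a single read with no reference read beside it. Fisher's exact test (two-sided, tumor against normal library, Benjamini-Hochberg over 1404 records) called 0 members, as it called 0% of all WT and 0% of all A159V records. At an unadjusted p under 0.05 it called 0 members, against 1 of all 792 WT records (0.126%) and 1 of all 612 A159V records (0.163%). At the 217 members with no reference read in either library the test cannot give a small p. With so few reads at member sites, 0 calls do not show that the libraries were alike. The smallest unadjusted p of a member was 0.273 in WT (Rims2, a presynaptic scaffold gene, 1 of 3 tumor reads against 0 of 8) and 0.25 in A159V (Tie1 and Auts2, each 1 of 1 tumor read against 0 of 3).

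Exact copies were commoner at simple repeats than elsewhere. They made up 80 of 394 members (20.3%, 16.4 to 24.6) and 71 of 975 other records (7.28%, 5.73 to 9.1), an odds ratio of 3.24 (2.26 to 4.65). The difference was present in both tables, with odds ratios of 2.64 in WT (1.63 to 4.26) and 4.3 in A159V (2.44 to 7.67). Depth differed between the groups as given above, and among records with fewer than 20 reads in each library the shares were 20.9% and 9.59%, an odds ratio of 2.49 (1.72 to 3.61). Records just short of the rule were not set apart from members. With a 7 bp homopolymer 4 of 20 were exact (20%, 5.73 to 43.7). With an 11 bp tandem stretch 3 of 9 were (33.3%, 7.49 to 70.1). Between genotypes, 42 of 222 WT members (18.9%) and 38 of 172 A159V members (22.1%) were exact, an odds ratio of 1.21 (0.719 to 2.05).

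The share of exact copies was higher at longer units than at homopolymers. It was 30 of 211 for homopolymers (14.2%, 9.8 to 19.7) and 50 of 183 for units of 2 to 6 bp (27.3%, 21.0 to 34.4), an odds ratio of 2.26 (1.33 to 3.90). Within genotypes that ratio was 1.56 in WT (0.751 to 3.27), an interval that spans 1, and 3.61 in A159V (1.59 to 8.60). Among the longer units there was no order beyond the intervals, with 26.9% at 2 bp, 34.8% at 3 bp, 23.5% at 4 bp, 26.7% at 5 bp and 33.3% at 6 bp. Single units spanned a wide range: 14 of 53 AC records, 6 of 13 AGG, 6 of 10 AAAC and 1 of 41 poly-C or poly-G records were exact, and 0 of 10 AAAG and 0 of 10 AAAGG records were.

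**Figure D3:**
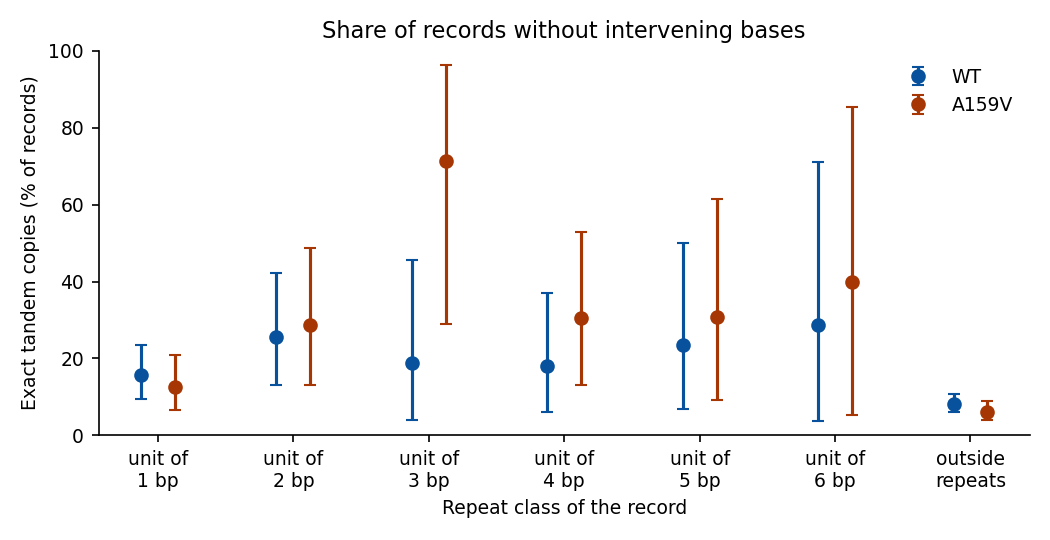
Share of records that are exact tandem copies, with no intervening bases (y axis, %), by repeat unit length and for records outside repeats, in WT (blue) and A159V (orange-brown); lines are 95% Clopper-Pearson intervals. Outside repeats 8.12% of WT and 6.18% of A159V records were exact, and the 3 bp class shows 3 of 16 WT and 5 of 7 A159V records, with intervals that overlap.

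Most exact copies did not lengthen the repeat itself. The segment is longer than its stretch, so a copy places the second stretch behind other bases, as in Tle1, whose duplicated allele holds the poly-T run 2 times, each 11 bp long. Stretches were measured within the listed alleles, without the flanking genome. In 13 of 80 exact copies the longest stretch was longer in the duplicated allele than in the reference allele, and in 6 it gained at least 1 whole unit. The largest gain was 13 bp, in the ACAG repeat at Igk, the immunoglobulin kappa locus, with 1 of 2 reads in the A159V tumor and no read in normal lung. The AGG repeat on chromosome 10 gained 8 bp. In both of these records the reference stretch reached an end of the segment. If the repeat runs on beyond that end, the true gain is smaller. The duplicated alleles of these 2, with every stretch that meets the definition in capitals, were these.
Igk, duplicated allele: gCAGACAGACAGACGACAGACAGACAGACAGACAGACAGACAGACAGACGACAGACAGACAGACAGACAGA
chr10:43642233-43642272, duplicated allele: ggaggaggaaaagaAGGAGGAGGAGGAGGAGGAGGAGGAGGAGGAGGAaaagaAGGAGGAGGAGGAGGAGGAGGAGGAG
The poly-A run in Trpm7, an ion channel and kinase gene, gained 1 bp, and the AC repeat on the Y 1 bp.

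In exact copies the duplicated length was a whole multiple of the unit in 12 of 18 records with a 2 bp unit (66.7%, 41.0 to 86.7), 4 of 8 with 3 bp (50%, 15.7 to 84.3), 6 of 12 with 4 bp (50%, 21.1 to 78.9), 1 of 8 with 5 bp and 1 of 4 with 6 bp. Lengths spread evenly would give 50%, 33.3%, 25%, 20% and 16.7%, values that lie within the intervals. Segments at simple repeats had a median of 38 bp (quartiles 33 and 45, range 17 to 49) against 41 bp for other records. The stretch had a median of 17 bp, both in exact copies and in records with intervening bases, and filled a median of 45.1% of the reference allele. By base, member segments held 33.3% A, 14.9% C, 18.9% G and 32.9% T, and other segments 27.5%, 22.4%, 22.9% and 27.2%; the rule, which takes many A and T runs, fixes part of that difference.

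**Figure D4:**
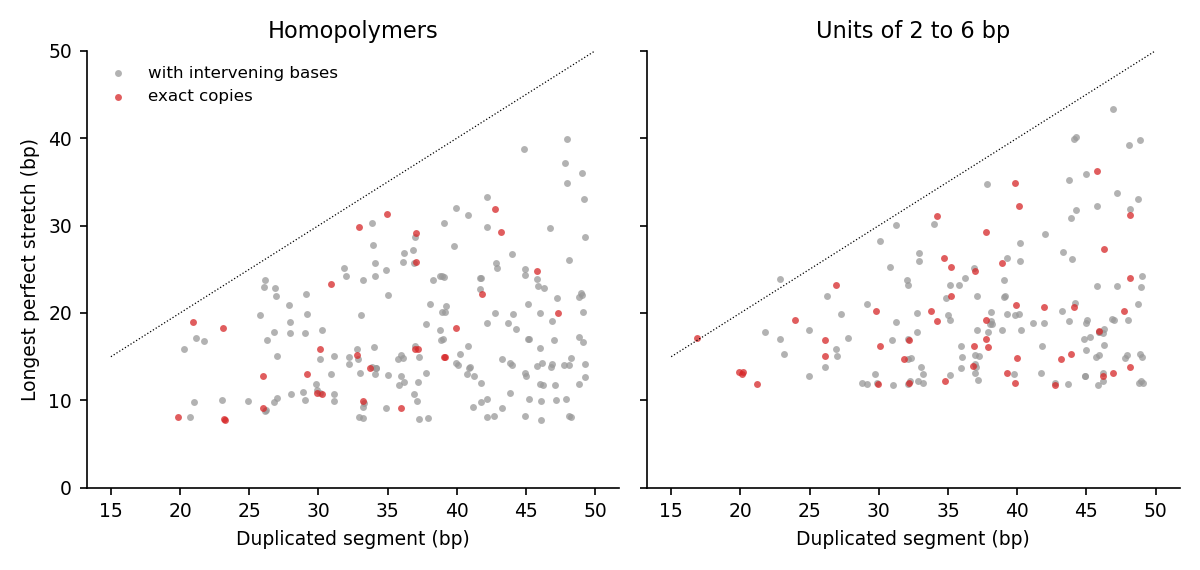
Length of the longest perfect stretch (y axis, bp) against the length of the duplicated segment (x axis, bp) for the 211 homopolymer records (left) and the 183 records with a unit of 2 to 6 bp (right), shifted at random by up to 0.3 bp so that points do not hide each other. Points on the dotted line would be stretch from end to end; most lie well below it. Exact copies (red) reach 32 bp for homopolymers and 36 bp for longer units, and records with intervening bases (grey) 40 and 43 bp.

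The longest stretches of a 1, 2, 4 and 5 bp unit came close to filling the segment. The AG repeat in Ctnna3, an alpha-catenin gene, was 43 bp long in a 47 bp segment, with 1 of 1 read in A159V normal lung. The poly-T run on chromosome 13 was 40 bp in 48 bp, with 1 of 1 read in WT normal lung, and the AGAT repeat on the same chromosome 40 bp in 49 bp, with 1 of 1 read in A159V normal lung. The ACAGC repeat in Msh4, a meiotic MutS homolog that acts in crossing-over, was 39 bp in 48 bp, with 1 of 1 read in A159V normal lung. In each of these 4 the other library of the genotype had no read at the site.

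Where bases lay between the copies, they themselves often held a simple repeat. This was so in 174 of 314 members with intervening bases (55.4%, 49.7 to 61.0) and in 88 of 904 other records (9.73%, 7.88 to 11.9), an odds ratio of 11.5 (8.33 to 16.0). The difference was seen in WT (12.2, 7.91 to 19.1) and in A159V (10.6, 6.48 to 17.5). It was present among records with fewer than 20 reads in each library (56.1% against 11.6%), among records with no N in the intervening bases (53.7% against 7.87%) and when stretches that touch an end of the intervening bases were not counted (42.0% against 7.74%). A block of N, that is of unread bases, lay in the intervening bases of 150 members (47.8%) and 459 other records (50.8%), an odds ratio of 0.887 (0.680 to 1.16). The median number of intervening bases was 59 bp at simple repeats and 60 bp elsewhere.

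The repeat between the copies was mostly of the same unit as the segment's. For units of 2 to 6 bp, 62 of 133 records (46.6%) held the same unit, 61 of them on the same strand only, 0 on the other strand only and 1 on both, and 22 held another unit. Megf9 and Msh4 are of this kind, with the segment's own unit between the copies. Slc9c1, a sperm sodium/proton exchanger gene, is of the other kind: its segment ends in TCC repeats and the 46 intervening bases are CTT repeats from end to end. For homopolymers, 74 of 181 records (40.9%) held a run of the same base pair, 47 on the same strand only, 18 on the other strand only and 9 on both. One run on the other strand was in Alk, the receptor kinase gene rearranged in some lung cancers, where an A run in the segment met a T run between the copies.
Alk chr17:72115321-72115370, segment: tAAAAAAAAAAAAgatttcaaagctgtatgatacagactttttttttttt
Alk, intervening bases: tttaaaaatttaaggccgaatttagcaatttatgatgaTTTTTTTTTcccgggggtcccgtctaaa
The segment of this record also ends in a T run as long as its A run, so the strand given here rests on which run was taken. Strand was scored against 1 stretch of each segment, and 74 of all members held another qualifying stretch. The count on the other strand may therefore hold more such records. The Alk record had 1 of 1 read in the WT tumor and no read in normal lung.

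The place of the stretch within the segment differed between the forms. With intervening bases the stretch reached an end of the segment in 230 of 314 records (73.2%, 68.0 to 78.1), 117 at the 5′ end, 112 at the 3′ end and 1 at both. In exact copies it did so in 33 of 80 (41.2%, 30.4 to 52.8), an odds ratio of 3.88 (2.27 to 6.72). The odds ratio was 3.4 in WT (1.61 to 7.27) and 4.45 in A159V (1.97 to 10.4). It was 8.99 for homopolymers (133 of 181 against 7 of 30, 3.46 to 26.5) and 2.47 for units of 2 to 6 bp (97 of 133 against 26 of 50, 1.20 to 5.14). A stretch that runs on beyond the segment is counted here only as far as the segment shows it, since no genome sequence of these flanks was used.

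**Figure D5:**
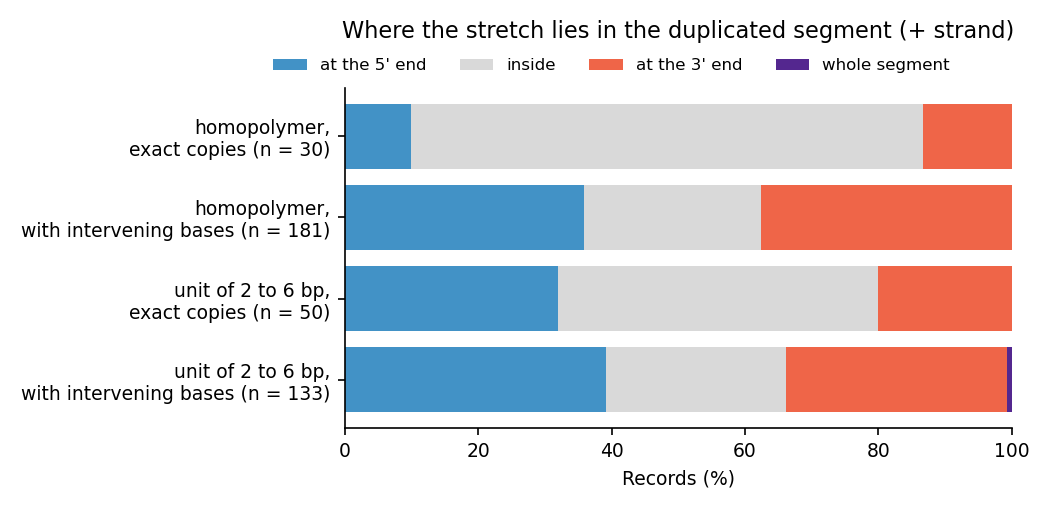
Where the longest stretch lies in the duplicated segment (x axis, % of records), for homopolymers and for units of 2 to 6 bp, each split into exact copies and records with intervening bases; ends are those on the + strand. The stretch lay inside the segment, away from both ends, in 23 of 30 exact homopolymer copies and in 48 of 181 homopolymer records with intervening bases.

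Duplications at simple repeats seldom recurred between the tables. Merged within 10 bp they formed 383 loci, of which 6 (1.57%, 0.577 to 3.38) had a record in both genotypes, against 84 of 769 other loci (10.9%, 8.81 to 13.3), an odds ratio of 0.13 (0.0459 to 0.299). With fewer than 20 reads in each library the counts were 6 of 372 and 58 of 559. Of the other records, 142 of 975 lay in dense 100 kb windows, where no member lay. The odds ratio without these windows was not computed. By library, 373 loci had reads in 1, 8 in 2, 2 in 3 and 0 in all 4, and no locus had more than 3 supporting reads. At 4 of the 6 shared loci a member was recorded in both tables.

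Both tables held the same letters for 2 of these loci. The AAAGG record in Megf9 had 1 of 1 read in each tumor and in WT normal lung, and no read at the site in normal lung of A159V. It was thus seen in 3 of the 4 libraries. The exact poly-T copy in Tle1, a Groucho-family corepressor gene, had 1 of 1 read in each normal lung and no read at the site in either tumor. The third shared locus, an AGAT repeat at chr8:15890153-15890191, had the same segment and the same number of intervening bases, with 1 read in WT normal lung and 1 in A159V tumor. The fourth, an AAAG repeat in Crispld1, had overlapping segments that were not the same. Its WT record (chr1:17750134-17750161) had 2 of 2 reads in the tumor, and its A159V record (chr1:17750111-17750156) had 1 of 1 in the tumor, with no read in either normal lung.

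Members with 2 or more reads were 8 in all, and none had more than 3. Of these, 7 are given here. Besides Crispld1 and Megf9 they included Slc9c1, with 1 of 11 reads in the WT tumor and 2 of 6 in its normal lung, and Atp2c1, the Golgi calcium and manganese pump gene, whose AC repeat had 2 of 2 reads in the A159V tumor and 1 of 2 in its normal lung. An AC repeat in Ccser2 had 2 of 2 reads in WT tumor, an AC repeat at chr13:101100545-101100582 had 2 of 2 in A159V tumor, and an AGAT repeat at chr2:42981257-42981305 had 1 of 2 in the WT tumor and 1 of 1 in its normal lung. Reads of 3 of these 8 records came from both tissues in WT, and of 1 in A159V.

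By place, 213 members (54.1%) lay in protein-coding gene spans, against 497 of 975 other records (51.0%), an odds ratio of 1.13 (0.889 to 1.44). They fell in 200 protein-coding genes, and 8 of these held members at 2 or more loci: Alk and Rbms3 at 3, and Auts2, Cntn5, Iqank1, Magi2, Ptprd and Tiam1 at 2. The X held 16 members, the Y 8 and mitochondrial DNA 0, and no count over all records was set beside these. Promoter windows of RefSeq, short stretches around each gene's start, overlapped 3 members, all A or T runs with 1 supporting read. These 3 were among 13 overlaps checked, the rest at records outside simple repeats. The 3 members were at Hlx, a homeobox gene (exact, WT tumor), Fam98c (WT tumor) and Ebf1, a B-cell transcription factor gene (A159V normal lung).

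Over the 5 gene lists together, 5 of 142 protein-coding genes (3.52%) held a member, where 200 of all 21900 protein-coding genes (0.913%) did. The lists were chosen with earlier results of these data known, so setting these 2 shares side by side is not a test of enrichment. The listed genes are also longer, with a median span of 33.6 kb against 17.1 kb over all, and the part of gene length in these shares was not tested. Of 36 lung cancer genes 2 did, Alk with 3 records and Ptprd, a receptor phosphatase gene, with 2. Of 46 genes of flap processing and replication 1 did, Gins1, a subunit of the replicative helicase, with an exact copy at an ACATAT repeat and 1 of 1 read in WT normal lung. Of 10 genes listed under mismatch repair it was Msh4, the MutS homolog that acts in meiotic crossing-over. Of 30 genes of base excision and break repair it was Parp1, the poly(ADP-ribose) polymerase that binds strand breaks. Parp1 had a C run and 1 of 1 read in A159V tumor. Of 22 genes whose human counterparts cause repeat expansion disease, 0 held a member. Each of these 8 records rested on 1 read.

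The records next to the rule's thresholds had these values. Of the 14 members with a homopolymer of just 8 bp, 3 were exact (21.4%), and of the 20 records just outside, with 7 bp, 4 were (20%). Of the 19 members with a tandem stretch of just 12 bp, 5 were exact (26.3%), and of the 9 records with 11 bp, 3 were (33.3%). Median depth was between 1 and 1.5 reads on both sides.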

How the data were processed

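Exome libraries of mouse lung were analysed from 2 deposited tables of tandem duplications, 1 per genotype, each with a tumor and a normal column matched to its sample by the column name. Per the file headers, calls were made with Pindel on GRCm38, and the values are deposited counts of reads for the reference and the duplicated allele, without normalization. The submitters' processing notes name BWA; the version of either tool is not given in the sources used here, nor is any earlier filter. Repeats were found in the reference allele of each record, and a record with several stretches was classed by its longest. The stretch finder gave the same longest stretch length as a search of every substring in 400 of 400 simulated sequences. A repeat was planted in every other one of these. Records within 10 bp were merged into loci. Shares carry Clopper-Pearson, counts exact Poisson, and ratios and odds ratios exact conditional intervals, all at 95%. With 1 library per group there was no test between groups. Fisher's exact test was run on all 1404 records, with Benjamini-Hochberg adjustment and a threshold of 0.05, and compares 2 libraries. Reads per member site had a median of 1 in each library, which limits every share of reads. Genes came from the spans of 49997 RefSeq genes; the deposited letters equalled RefSeq's in 13 of 13 overlaps with its promoters. Named records are, over merged loci, the 10 with most reads, and per genotype the 4 best supported among tumor-only members, the 4 best among normal-only members and the 3 with the smallest Fisher p. Further, per unit length, those with the longest stretch, the most reads and the largest gain, records identical in both tables, and members in the gene lists. Records at chr8:15890153, in promoter windows and at ACAG repeats were named after their values were seen. The members and lists were chosen with earlier results of these data known. Sequences from chromosome 18 and some named records are not reported here. Alternatives covered the repeat definition, reads per call, depth, dense windows, merging and exact copies. Python 3.11.15, pandas 2.3.3, scipy 1.17.1 and matplotlib 3.10.9 were used.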

Additional observations from a re-analysis of the deposited data

How the results depend on the processing

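No paired analysis was possible because each group is 1 library. Of 132 alternatives computed, 91 gave a value within the interval first found (calls: within 1.5 times the first count), 40 moved further and 1 turned a ratio whose interval excluded 1. Merging records within 10 bp moved no value that far, but the WT tumor-only to normal-only ratio then spanned 1 (1.32, 0.995 to 1.74), as it did under the stricter repeat definition (1.34, 0.968 to 1.87). The A159V ratio, whose interval spanned 1 from the start, was below 1 under that definition (0.942, 0.661 to 1.34). Requiring 2 supporting reads left 1, 2, 1 and 2 calls (WT normal, WT tumor, A159V normal, A159V tumor), tumor-only to normal-only ratios of 2 in either genotype, an A159V to WT tumor ratio of 1, and shares of records at simple repeats of 3.9% in WT and 6.12% in A159V, so nothing can be read from recurrent support. Requiring 20 reads in each library left 2, 1, 2 and 0 calls and shares of 1.75% and 1.61%, with an A159V to WT tumor ratio of 0 and tumor-only to normal-only ratios of 0.5 in WT, which turned the direction on 3 records, and 0 in A159V. Exact copies alone gave 20, 22, 18 and 20 calls, and simple repeats were 46.7% of all exact WT records and 55.9% of all exact A159V records; homopolymers were then 42.9% and 31.6% of members, 2 bp units 23.8% in WT and 3 bp units 13.2% in A159V. A homopolymer minimum of 10 bp with 18 bp for longer units gave shares of 20.1% and 21.9%, homopolymers 64.8% and 65.7% of members, 2 bp units 9.43% and 4 bp units 8.18% in WT, and 3 bp units 1.49% in A159V. Without dense windows the shares were 32.2% and 32.0%. With no depth minimum the median share of duplicated reads was 100% in each of the 4 libraries. The cause of these changes was not tested. Odds ratios for exact copies, for repeats between the copies and for shared loci kept their side of 1 under the alternatives tried, which were chosen after seeing the data. Shares over fewer than 5 records were not given.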
